A study of Homo sapiens with 12 samples.

Results

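The genes described here are 39 targets of the transcription factor NRF2 and antioxidant enzymes, chosen by symbol from the 54261 gene symbols of the count table. All 39 had enough counts to be tested, among 17572 genes tested in all. NRF2, encoded by NFE2L2, is a transcription factor that KEAP1 normally binds and hands over for degradation. Oxidants and electrophiles modify KEAP1, NRF2 then accumulates, and with small MAF proteins it binds antioxidant response elements near genes for glutathione synthesis, thioredoxin recycling, NADPH supply and detoxification. In colorectal cancer cells these genes are known for their part in tolerance of oxidative stress and drugs.

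RNA was sequenced in 12 libraries from cultures of 2 human colorectal cancer cell lines, with 3 libraries in each of 4 groups. The groups were SW480 with lactate, SW480 without lactate, DLD1 with lactate and DLD1 without lactate. SW480 and DLD1 are established lines from human colorectal tumours, and no group carried a genetic change named in the labels. The libraries are described as biological replicates, with no further word on what separated them, and neither a lactate dose nor a treatment time is stated. Levels are given in CPM, the counts of a gene per 1000000 counts of its library, after scaling of the libraries to each other.

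Total counts ran between 12302311 and 22662063 per library. The libraries labelled SW480 went against markers of colorectal epithelium. EPCAM, an epithelial adhesion protein, averaged 646 CPM with lactate and 687 CPM without it in DLD1. In the libraries labelled SW480 it averaged 0.638 and 0.988 CPM. KRT20 had 0 counts there and was low in DLD1 too, at 0.715 CPM with lactate and 0.798 CPM without it. Of 10 epithelial markers, 2 averaged under 1 CPM in DLD1 and 6 did in the libraries labelled SW480. The keratins KRT8, KRT18 and KRT19 were present there. The 6 fibroblast markers, which summed to at most 7.34 CPM in any DLD1 library, reached between 246 and 269 CPM with lactate and between 253 and 266 CPM without it. This sum came mainly from COL3A1 (132 and 146 CPM), DCN (68.2 and 83.2 CPM) and COL1A1 (50.8 and 21.6 CPM). LUM averaged 4.06 and 4.42 CPM. PDGFRA averaged 1.84 and 1.77 CPM, against 1.13 and 1.11 CPM in DLD1. COL1A2 averaged 0.765 and 0.953 CPM, against 0.732 and 0.606 CPM in DLD1. Vimentin, a mesenchymal filament protein looked at after its values were seen, averaged 1.14 CPM with lactate and 1.71 CPM without it in DLD1, and 1723 and 1535 CPM in the libraries labelled SW480. Blood, endothelial and erythroid markers summed to at most 7.32, 4.33 and 0.452 CPM in any library. DLD1 controls 2 and 3 stood further from the other libraries of their group than any other library did from its own. Their per-gene log2 levels differed from the group by an SD of 0.469 and 0.386, against at most 0.23 in any other library. The difference followed the GC content of the transcript with a rank correlation of -0.773 and 0.806 across 13490 genes. In the other libraries this correlation ran between -0.581 (SW480 lactate 3) and 0.458 (SW480 lactate 1).

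Binding elements for NRF2 were looked for in promoter sequence, since members are classed as its targets. RefSeq promoters of GRCh38.p14, 250 bases before to 50 after the start, were found for 30 of the 39 genes. The table had no entry for HMOX1, GSR, GSS, PRDX1, PRDX6, SOD1, AKR1B10, ABCC1 and ABCC3. The core antioxidant response element TGACNNNGC, searched on both strands, occurred in 6 of the 30 promoters and in 4687 of all 35116 promoters (13.3%). The AP-1 site TGANTCA occurred in 3 of the 30 and in 2707 of all promoters (7.7%). In GSTP1 and ME1 the same stretch matched both motifs, since TGACTCAGC holds TGACTCA. The element was also found in GPX2 and PGD, and in the 2 promoters below. The promoters shown are those of genes called with lactate or held on a short list of pathway genes given whatever their p. Each line gives 150 bases before to 10 after the RefSeq start, with matches to TGACNNNGC or its reverse complement in capitals.
TXNRD1 (chr12:104215629-104215788, plus strand): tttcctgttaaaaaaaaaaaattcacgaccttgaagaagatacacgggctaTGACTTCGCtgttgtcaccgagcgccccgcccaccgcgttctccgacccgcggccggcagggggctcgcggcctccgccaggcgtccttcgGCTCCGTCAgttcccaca
GCLM (chr1:93909421-93909580, minus strand): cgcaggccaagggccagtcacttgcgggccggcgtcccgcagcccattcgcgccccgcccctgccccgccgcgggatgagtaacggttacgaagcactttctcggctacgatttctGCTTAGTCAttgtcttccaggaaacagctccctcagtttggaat
The matches began 99 and 8 bases before the start in TXNRD1 and 34 bases before it in GCLM. A match of letters is a description and does not show a bound site. Sequence beyond 250 bases before or 50 after the start was not searched. A gene without a match is therefore not shown to lack an element.

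With lactate, 11 of the 39 genes fell and 1 rose in the libraries labelled SW480, and 27 did not pass the test. Those that fell included the quinone reductase NQO1, the thioredoxin pair TXN and TXNRD1, sulfiredoxin SRXN1, superoxide dismutase SOD1 and the exporter ABCC2. The aldo-keto reductase AKR1B10 fell most, to 18.5 ± 0.765 CPM with lactate, against 44.4 ± 7.12 CPM without it (SD, n = 3 each). The heme oxygenase HMOX1 was the member that rose. A gene was called where the adjusted p of edgeR's quasi-likelihood test, corrected over all 17572 genes by the Benjamini-Hochberg method, was under 0.05. Of all genes tested, 12.4% were called in this comparison, 6.83% upwards and 5.59% downwards. The median log2 fold change of the 39 genes was -0.22, and over all genes it was -0.01. Of the 39, 29 had a negative fold change. In 20 of the 39 every lactate library was below every control library, against 20.4% of all genes. In 3 of the 39 the lactate libraries were all higher, against 20.6% of all genes. Together the members took between 1.05 and 1.11% of all counts with lactate, against between 1.24 and 1.29% without it. Each library is RNA of a whole culture, so fewer cells of a type and less RNA per cell cannot be told apart. The epithelial keratins KRT8 and KRT18 also fell in these libraries, with log2 fold changes of -0.51 and -0.61, while KRT19 rose by 0.71 and the collagen COL1A1 by 1.23. COL1A1 was the 1 of 6 fibroblast markers called, and 4 of the 6 had negative fold changes. The 10 epithelial markers summed to between 1418 and 1752 CPM with lactate and between 1997 and 2349 CPM without it. Their part in the results was not tested.

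**Figure D1:**
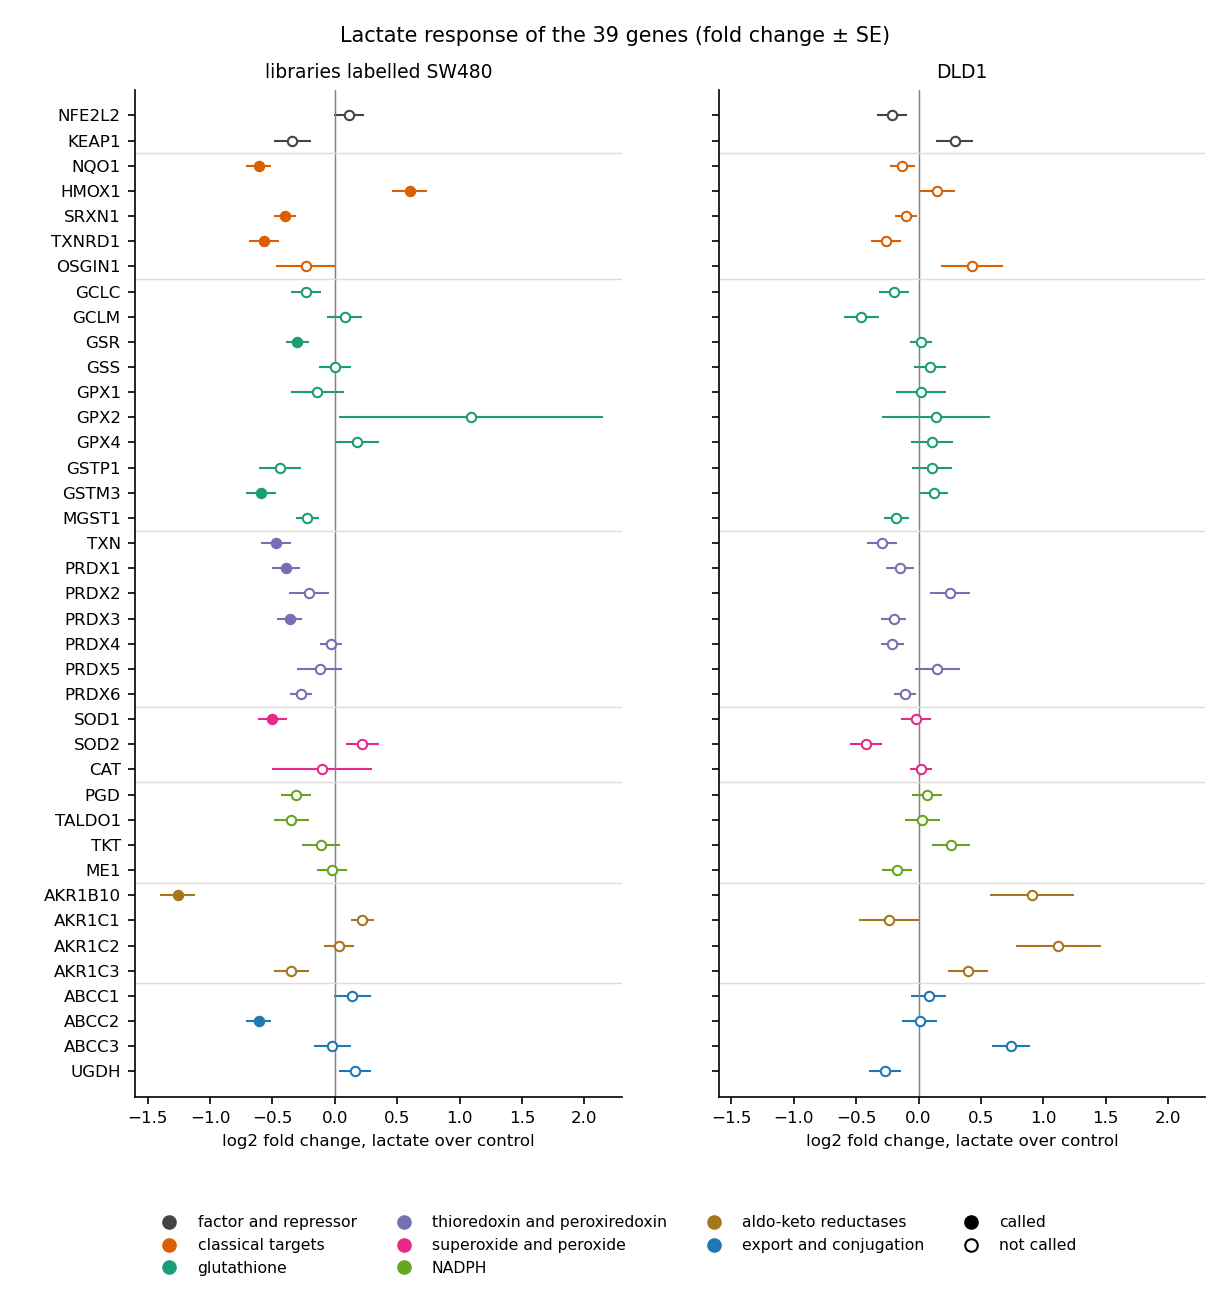
Log2 fold change of lactate over control for each of the 39 genes, grouped by role, in the libraries labelled SW480 (left) and in DLD1 (right). Points are edgeR estimates, bars are ± 1 SE, and filled points were called: 12 in the libraries labelled SW480 and 0 in DLD1.

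The factor and its repressor were not called. NFE2L2, the gene of NRF2, had 102, 113 and 125 CPM with lactate and 103, 107 and 105 CPM without it in the libraries labelled SW480, with a log2 fold change of 0.11 ± 0.12 (SE, adjusted p = 0.604 in edgeR's quasi-likelihood test). KEAP1 had 55.7, 53.2 and 42.8 CPM with lactate and 69, 58.9 and 64.7 CPM without it. All lactate libraries were below the controls for KEAP1, and its log2 fold change of -0.34 ± 0.15 had an adjusted p of 0.157. KEAP1 was called lower with the GC and length trend removed (-0.41, adjusted p = 0.000192), with the libraries labelled SW480 fitted alone (0.0158) and without DLD1 control 2 (0.0216).

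Of 5 classical NRF2 targets, 3 fell, 1 rose and 1 was not called, where 5.59% of all genes fell and 6.83% rose. NQO1, which reduces quinones (chromosome 16, 69709401 to 69726560 of GRCh38.p14, minus strand), had 354, 334 and 328 CPM with lactate and 586, 457 and 509 CPM without it. Its log2 fold change was -0.61 ± 0.10 (adjusted p = 0.00175), and the groups did not overlap. TXNRD1, the cytosolic thioredoxin reductase, had 854, 853 and 876 CPM with lactate and 1376, 1171 and 1300 CPM without it, a log2 fold change of -0.57 ± 0.12 (adjusted p = 0.00704). SRXN1, which repairs overoxidised peroxiredoxins, had 243, 227 and 220 CPM with lactate and 327, 279 and 306 CPM without it. Its log2 fold change was -0.40 ± 0.09 (adjusted p = 0.00926), and the call was lost without SW480 lactate 2, SW480 lactate 3 or SW480 control 1 (adjusted p = 0.0682, 0.0601 and 0.0723). In the GENCODE annotation 84.7% of the 50-base words of SRXN1 also lay in AL121758.1, which overlaps it on the same strand, so its counts may hold reads of that gene. The 3 lactate libraries lay below the 3 controls for each of these genes.

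HMOX1, which breaks down heme and is also under the repressor BACH1, moved the other way. It had 23.3, 28.3 and 26.2 CPM with lactate and 16.5, 18.7 and 16.1 CPM without it, with no overlap. The log2 fold change was 0.60 ± 0.14 (adjusted p = 0.0124). It was not called when SW480 lactate 2, SW480 control 1 or SW480 control 3 was left out (adjusted p = 0.0682, 0.0736 and 0.059). OSGIN1, a stress-induced growth inhibitor, had 7.02, 7.98 and 9.01 CPM with lactate and 10.3, 7.5 and 10.3 CPM without it, and its groups overlapped (log2 fold change -0.23 ± 0.24, adjusted p = 0.569).

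**Figure D2:**
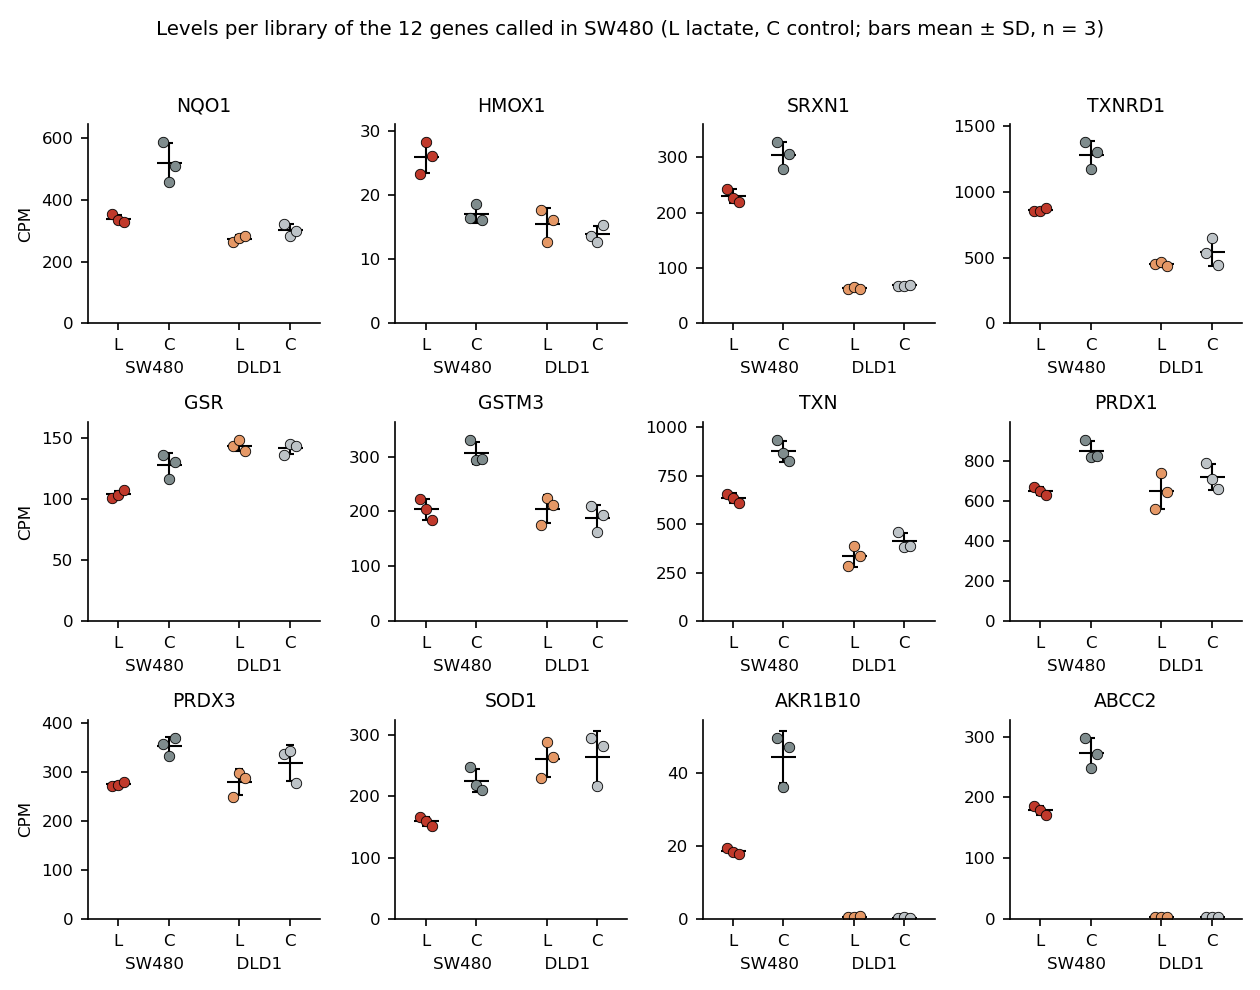
Level in CPM in every library of the 12 genes called in the libraries labelled SW480, with lactate (L) left of control (C) for each line. Circles are libraries and bars are mean ± SD (n = 3). In the SW480 pairs no lactate circle reaches the range of the controls, and HMOX1 is the panel where lactate lies above. AKR1B10 and ABCC2 are close to 0 in DLD1.

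Among 10 glutathione genes, 2 fell and 8 were not called, where 5.59% of all genes fell. GSTM3, a glutathione transferase, had 223, 204 and 185 CPM with lactate and 330, 294 and 296 CPM without it. Its log2 fold change was -0.59 ± 0.12 (adjusted p = 0.00635). GSR, which regenerates reduced glutathione, had 101, 103 and 107 CPM with lactate and 136, 116 and 130 CPM without it. Its groups did not overlap either, with a log2 fold change of -0.30 ± 0.09 (adjusted p = 0.0421), but it lost its call when any of 9 single libraries was left out, with adjusted p up to 0.204. The subunits of glutamate-cysteine ligase, which starts glutathione synthesis, were not called. The catalytic subunit GCLC had 85.1, 87.1 and 83.8 CPM with lactate and 108, 92.8 and 99.6 CPM without it (log2 fold change -0.23 ± 0.12, adjusted p = 0.227). With the GC and length trend removed GCLC was called lower, without and with the replicate block (adjusted p = 0.0213 and 0.024). It was also called with the libraries labelled SW480 fitted alone (0.0272) and without DLD1 control 2 (0.0346). The modifier subunit GCLM had 117, 122 and 126 CPM with lactate and 120, 103 and 125 CPM without it (log2 fold change 0.08 ± 0.14, adjusted p = 0.78). GCLC was lower in every lactate library and GCLM overlapped. The remaining glutathione genes GSS, GPX1, GPX2, GPX4, GSTP1 and MGST1 had adjusted p of at least 0.0986, with GSTP1 the lowest at a log2 fold change of -0.44 ± 0.17.

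All 7 thioredoxin and peroxiredoxin genes had negative fold changes, and 3 of them passed the test, where 5.59% of all genes fell. TXN, the disulfide-reducing protein that TXNRD1 recharges, had 659, 636 and 608 CPM with lactate and 935, 870 and 826 CPM without it, a log2 fold change of -0.47 ± 0.12 (adjusted p = 0.0189). PRDX1, a cytosolic peroxidase that uses thioredoxin, had 672, 651 and 631 CPM with lactate and 906, 822 and 826 CPM without it, a log2 fold change of -0.39 ± 0.11 (adjusted p = 0.0326). PRDX3, its mitochondrial relative, had 272, 274 and 280 CPM with lactate and 358, 333 and 370 CPM without it, a log2 fold change of -0.36 ± 0.10 (adjusted p = 0.0373). None of these 3 overlapped between groups. TXN lost its call without SW480 lactate 2, SW480 lactate 3 or SW480 control 1, with adjusted p of 0.0814, 0.0827 and 0.104. PRDX1 and PRDX3 each lost theirs without any of 7 single libraries, with adjusted p up to 0.154 and 0.145. PRDX1 shares 28.6% of its 50-base words with MMACHC on the opposite strand and a pseudogene, and the strand setting of the counting is not given in the sources used here. PRDX2, PRDX4, PRDX5 and PRDX6 had log2 fold changes between -0.27 and -0.03, and PRDX6, also lower in every lactate library, had an adjusted p of 0.0643.

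SOD1, the cytosolic copper-zinc superoxide dismutase, had 166, 159 and 152 CPM with lactate and 247, 219 and 210 CPM without it. Its log2 fold change was -0.50 ± 0.12 (adjusted p = 0.0171), with no overlap, and the call was lost without SW480 lactate 2, SW480 lactate 3 or SW480 control 1 (adjusted p = 0.077, 0.0783 and 0.108). SOD2, the mitochondrial manganese enzyme, averaged 1687 ± 194 CPM with lactate and 1452 ± 177 CPM without it (SD, n = 3 each), and its groups overlapped. Catalase, encoded by CAT and acting on hydrogen peroxide, had 3 counts in each lactate library and 3, 2 and 4 counts in the controls, so no response was detectable at this depth.

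The 4 genes of NADPH supply, PGD, TALDO1, TKT and ME1, were not called. PGD and TALDO1, of the pentose phosphate pathway, were lower in every lactate library, with log2 fold changes of -0.31 ± 0.12 and -0.35 ± 0.14 and adjusted p of 0.102 and 0.13. TKT and ME1 had log2 fold changes of -0.11 ± 0.15 and -0.02 ± 0.12.

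AKR1B10, which reduces aldehydes and retinal (chromosome 7, 134527567 to 134541412, plus strand), had 19.4, 18.3 and 17.9 CPM with lactate and 49.7, 36.3 and 47.2 CPM without it in the libraries labelled SW480. The lowest control was above the highest lactate library. Its log2 fold change was -1.26 ± 0.14 (adjusted p = 0.000132). The other aldo-keto reductases, which act on steroids and prostaglandins, were not called. AKR1C1 had 988, 1036 and 1022 CPM with lactate and 883, 855 and 870 CPM without it, all lactate libraries higher, with a log2 fold change of 0.22 ± 0.09 (adjusted p = 0.138). It was called higher with DESeq2 (adjusted p = 0.0102), with the libraries labelled SW480 fitted alone (0.0208) and without DLD1 control 2 (0.0278). AKR1C3 was lower in every lactate library at -0.35 ± 0.14 (adjusted p = 0.121), and AKR1C2 overlapped at 0.03 ± 0.12. AKR1C1, AKR1C2 and AKR1C3 share 28.7%, 52.2% and 12.1% of their 50-base words with other genes, mainly each other, so reads may have been split among them.

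ABCC2, which exports glutathione and glucuronide conjugates, had 186, 179 and 171 CPM with lactate and 298, 249 and 271 CPM without it, with no overlap. Its log2 fold change was -0.61 ± 0.10 (adjusted p = 0.00115). The exporters ABCC1 and ABCC3 had log2 fold changes of 0.14 ± 0.15 and -0.02 ± 0.15, and UGDH, which makes the glucuronic acid donor, 0.16 ± 0.13, with none called. NQO1, TXNRD1, GSTM3, AKR1B10 and ABCC2 were called in each of the 12 fits that leave out a single library. The number of the 39 genes that fell was 5 without SW480 lactate 2, without SW480 lactate 3 and without SW480 control 1, and in each case these 5 were the ones that fell. Over all genes, 1.52%, 2.25% and 1.41% fell in those fits. It was 18 without DLD1 control 2, where 11.6% of all genes fell. It was 19, with 2 that rose, when the libraries labelled SW480 were fitted alone, where 14.2% of all genes fell and 16% rose.

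Related genes outside the 39 showed calls in both directions in the libraries labelled SW480, where 6.83% of all genes rose and 5.59% fell. Of 16 regulators of NRF2, 2 rose and 0 fell. These were the small MAF proteins MAFF, at 38.7 ± 3.51 CPM with lactate and 23.5 ± 3.06 CPM without it, and MAFK, at 362 ± 41 and 220 ± 30.9 CPM (SD, n = 3 each), both with a log2 fold change of 0.72. MAFG, SQSTM1, which competes for KEAP1, and BACH1, a repressor at the same elements, were not called, with log2 fold changes of -0.16, -0.34 and 0.48 and adjusted p of 0.322, 0.0691 and 0.063. Of 28 further glutathione genes tested, GLRX and GSTO1 rose by 0.51 and 0.39 and GSTM1 and GSTK1 fell by 0.60 and 0.40 on the log2 scale. SLC7A11, the cystine importer, averaged 386 ± 19.5 CPM with lactate and 518 ± 65 CPM without it (adjusted p = 0.353). Of 17 other thioredoxin and redox genes, TXNIP, which binds thioredoxin, and SESN2 rose by 0.95 and 0.68 and MSRB1 fell by 0.57.

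Of 29 other NADPH and NRF2 target genes, 2 rose and 6 fell, beside 6.83% and 5.59% of all genes. FTH1, the ferritin heavy chain, averaged 6640 ± 554 CPM with lactate and 3939 ± 408 CPM without it, a log2 fold change of 0.75 (adjusted p = 0.00579). PTGR1 rose by 0.47. AKR1B1 and IDH1 fell by 0.64 and 0.45, and ALDH3A1, an aldehyde dehydrogenase, by 0.94 on the log2 scale. NQO2 and TRIM16L fell by 0.49 and 0.39. The median over this list was -0.21, against -0.01 over all genes.

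In DLD1, none of the 39 genes was called with lactate in edgeR's quasi-likelihood test, where 0.381% of all genes were called, 0.336% upwards and 0.0455% downwards. At an unadjusted p under 0.05 there were 9. DESeq2 called 3, with ABCC3 higher and PRDX4 and SOD2 lower, where it called 1.99% of all genes upwards and 1.9% downwards. Limma-voom called ABCC3, and 0.404% and 0.0512% of all genes in those directions. The median log2 fold change was 0.02, as over all genes. In 2 genes all lactate libraries were higher and in 5 all were lower, against 9.82% and 9.03% of all genes. Without DLD1 control 3, 6 of the 39 rose and 5 fell, beside 10.4% and 10.6% of all genes. Without DLD1 control 2, ABCC3 alone rose and none fell, beside 0.707% and 0.116% of all genes.

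ABCC3, named here after its values were seen, exports bile acid and glucuronide conjugates. It had 113, 109 and 114 CPM with lactate and 67.8, 51.6 and 82.1 CPM without it in DLD1. The groups did not overlap, and the log2 fold change was 0.74 ± 0.15, with an adjusted p of 0.0506. It was called with DESeq2, limma-voom, DESeq2's size factors and no filter, and not with a stricter filter or with DLD1 fitted alone. AKR1B10 had 9, 12 and 21 counts with lactate and 6, 7 and 7 counts without it, 0.523, 0.593 and 0.9 CPM against 0.293, 0.463 and 0.352 CPM. All lactate libraries were higher, at levels under 1 CPM, with a log2 fold change of 0.91 ± 0.34 (adjusted p = 0.192). AKR1C2 had 17, 11 and 20 counts with lactate and 12, 3 and 5 counts without it, and the groups overlapped (1.12 ± 0.34, adjusted p = 0.15). AKR1C1 had 11, 11 and 16 counts with lactate and 14, 8 and 19 counts without it, with overlap (-0.24 ± 0.24, adjusted p = 0.697).

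GCLM had 38.3, 35.2 and 32.4 CPM with lactate and 42.8, 62.1 and 40.8 CPM without it, and SOD2 had 253, 243 and 219 CPM with lactate and 327, 366 and 266 CPM without it. Both were lower in every lactate library, with log2 fold changes of -0.46 ± 0.14 (adjusted p = 0.153) and -0.42 ± 0.13 (adjusted p = 0.151), and control 2 was the highest library for each. NFE2L2 had 114, 105 and 106 CPM with lactate and 119, 150 and 106 CPM without it (log2 fold change -0.21 ± 0.12, adjusted p = 0.361). KEAP1 had 107, 98.7 and 111 CPM with lactate and 85.8, 66.6 and 106 CPM without it (0.29 ± 0.15, adjusted p = 0.31). For both the groups overlapped, and control 2 was the extreme library.

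The classical targets and GCLC stayed within or close to the range of their DLD1 controls. NQO1 had 264, 276 and 284 CPM with lactate and 322, 282 and 299 CPM without it (log2 fold change -0.13 ± 0.10, adjusted p = 0.481). TXNRD1 had 448, 470 and 434 CPM with lactate and 535, 647 and 443 CPM without it (-0.26 ± 0.12, adjusted p = 0.259). HMOX1 had 17.7, 12.8 and 16.2 CPM with lactate and 13.7, 12.8 and 15.4 CPM without it (0.15 ± 0.14, adjusted p = 0.566). These 3 overlapped between groups. SRXN1 had 62.9, 66.4 and 62.8 CPM with lactate and 68.1, 67.2 and 70.3 CPM without it, all lactate libraries lower by a small margin (-0.10 ± 0.09, adjusted p = 0.562). OSGIN1 had 5.75, 5.48 and 6.26 CPM with lactate and 4.49, 2.38 and 5.93 CPM without it (0.43 ± 0.25, adjusted p = 0.355). GCLC had 66.8, 66.7 and 64.2 CPM with lactate and 69.5, 91.9 and 65.3 CPM without it (-0.20 ± 0.12, adjusted p = 0.379). For OSGIN1 control 2 was the lowest library and for GCLC it was the highest.

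The other members called in the libraries labelled SW480 were not called in DLD1. Exporter ABCC2 had 3.43, 3.36 and 3.04 CPM with lactate and 2.93, 3.51 and 3.37 CPM without it (log2 fold change 0.01 ± 0.14). SOD1 had 230, 289 and 264 CPM with lactate and 295, 216 and 282 CPM without it (-0.02 ± 0.12). GSTM3 had 176, 225 and 212 CPM with lactate and 209, 163 and 194 CPM without it (0.12 ± 0.12). These groups overlapped. TXN had 283, 390 and 335 CPM with lactate and 461, 384 and 390 CPM without it (-0.29 ± 0.12, adjusted p = 0.217). PRDX1 had 562, 741 and 644 CPM with lactate and 792, 710 and 663 CPM without it (-0.15 ± 0.11). PRDX3 had 249, 299 and 289 CPM with lactate and 338, 343 and 277 CPM without it (-0.20 ± 0.10). GSR, with 143, 148 and 139 CPM with lactate and 136, 145 and 143 CPM without it, had a log2 fold change of 0.02 ± 0.09. For TXN, PRDX1, PRDX3 and GSR the groups overlapped too.

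The DLD1 fold changes of the 39 genes followed the GC content of the transcript. The rank correlation was 0.581 over the 39 genes and 0.633 over 13490 genes, and it is given as a description, since all points share the same libraries. Without control 2 it was 0.216 over the 39, and without control 3 it was 0.615. In the libraries labelled SW480 it was 0.0211. In 13 of the 39 the DLD1 fold change had the other sign with the trend along GC content and length removed in each library, at values between -0.23 and 0.20, and in 9 it did without control 2, and none of these was called. With the trend removed, 2 members rose in DLD1, ABCC3 and AKR1C2, and PRDX4 fell, beside 1.88% and 1.56% of all genes. Under the same removal 3 rose and 17 fell in the libraries labelled SW480, where 13.8% of all genes rose and 14.8% fell. TXNIP was the single gene of the related lists called in DLD1, at 395 ± 30.7 CPM with lactate and 212 ± 20.7 CPM without it (SD, n = 3 each, log2 fold change 0.89, adjusted p = 0.0289).

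**Figure D3:**
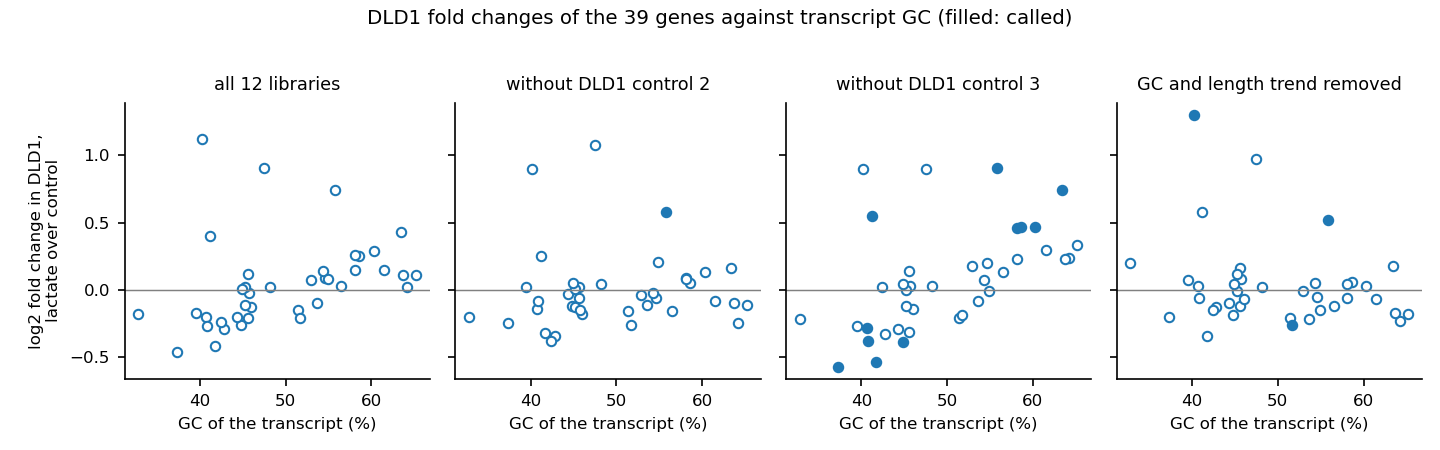
Log2 fold change of lactate over control in DLD1 (y axis) against the GC content of the transcript in percent (x axis) for the 39 genes, with all libraries, without DLD1 control 2, without DLD1 control 3, and with the GC and length trend removed. Filled points were called: 0, 1, 11 and 3 of the 39. With all libraries and without control 3, genes of higher GC content lie higher.

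The lactate responses of the lines were compared by their difference, DLD1 minus SW480. Of the 39, 1 was called, AKR1B10, with a difference of 2.18 ± 0.37 on the log2 scale (adjusted p = 0.0168 in edgeR's quasi-likelihood test). Its log2 fold changes were 0.91 in DLD1 and -1.26 in the libraries labelled SW480. Of all genes, 0.728% were called in this test, 0.324% with a positive and 0.404% with a negative difference. AKR1B10 was under 1 CPM in all DLD1 libraries and passed the filter on low counts through the libraries labelled SW480, so the call rests on the few DLD1 counts given above and does not show a response in DLD1. It shares 17.7% of its 50-base words with other genes, AKR1B15 among them. The call was lost with limma-voom (adjusted p = 0.0601) and without SW480 lactate 2, SW480 control 1, SW480 control 3, DLD1 lactate 3 or DLD1 control 1, with adjusted p of 0.0561, 0.068, 0.0593, 0.0917 and 0.064. The other 38 were not called, so the responses of NQO1 (0.48 ± 0.14, adjusted p = 0.126), GSTM3 (0.70 ± 0.17, adjusted p = 0.068), ABCC2 (0.62 ± 0.17, adjusted p = 0.102) and HMOX1 (-0.45 ± 0.20, adjusted p = 0.267) were not shown to differ between the lines in this fit. Some alternatives called them. NQO1 was called with DESeq2 (adjusted p = 0.0316) and with the GC and length trend removed (0.00919). GSTM3 was called with no filter (0.00425), with DESeq2 (0.00609), with the trend removed (0.0307), and without DLD1 control 2 (0.0204) or DLD1 control 3 (0.0235). ABCC2 was called with the trend removed (0.0115) and without DLD1 control 2 (0.0476) or DLD1 control 3 (0.0435), and HMOX1 with the trend removed, at -0.68 (0.0224). With the trend removed, 11 differences of the 39 were positive and 3 negative, beside 3.67% and 4.44% of all genes.

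Without lactate, most of these genes differed between the lines, as did most of all genes tested. Of the 39, 11 were higher in DLD1, 19 were lower and 9 did not pass the test, where 70.8% of all genes were called, 33.6% higher and 37.3% lower. In 10 of the 39 every DLD1 control was above every SW480 control, against 32.8% of all genes. In 21 of the 39 every one was below, against 37.6%. Catalase was present in DLD1 and close to 0 in the libraries labelled SW480. The aldo-keto reductases AKR1B10, AKR1C1 and AKR1C2 were under 1 CPM in DLD1, where the exporter ABCC2 was low too. The median log2 difference was -0.29 for the 39 and -0.05 over all genes. The comparison with DLD1 is one of the libraries as labelled. CAT was under 1 CPM in every library labelled SW480, AKR1B10, AKR1C1 and AKR1C2 were in every DLD1 library, and GPX2 was in all 12 libraries. CAT and GPX2 passed the filter on low counts through the DLD1 libraries, so their calls among the 11 are no added support.

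CAT (chromosome 11, 34438934 to 34472060, plus strand) had 102, 95.9 and 93 CPM in DLD1 controls and 0.197, 0.167 and 0.237 CPM in SW480 controls. Over 3 libraries each this was 5394 counts against 9, a ratio of CPM of 476 with an exact (Clopper-Pearson) 95% interval between 251 and 1042, which covers counting error only. GPX2, a glutathione peroxidase of gut epithelium, had 0.977, 0.529 and 0.654 CPM in DLD1 controls and 0.0657, 0.0833 and 0 CPM in SW480 controls. With 41 counts against 2, the ratio was 16.3, with an interval between 4.23 and 139. Both genes were thus higher in every DLD1 control. MGST1, a membrane-bound glutathione transferase, had 70.7, 63.7 and 61.5 CPM in DLD1 controls and 604, 612 and 615 CPM in SW480 controls (log2 difference -3.22 ± 0.10, adjusted p = 6.02e-13). SOD2 had 327, 366 and 266 CPM in DLD1 controls and 1282, 1636 and 1439 CPM in SW480 controls (-2.18 ± 0.14, adjusted p = 1.73e-09). SRXN1 had 68.1, 67.2 and 70.3 CPM in DLD1 controls and 327, 279 and 306 CPM in SW480 controls (-2.15 ± 0.09, adjusted p = 1.94e-11). None of these overlapped between the lines.

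The aldo-keto reductases were all lower in DLD1 controls. AKR1C1 (chromosome 10, 4963415 to 4983283, plus strand) had 0.684, 0.529 and 0.955 CPM in DLD1 controls and 883, 855 and 870 CPM in SW480 controls, a log2 difference of -10.19 ± 0.16 (adjusted p = 1.13e-15). AKR1C2, next to it on the minus strand, had 0.586, 0.198 and 0.251 CPM in DLD1 controls and 431, 428 and 446 CPM in SW480 controls (-10.21 ± 0.21, adjusted p = 9.35e-15). Given the shared sequence, part of these few DLD1 reads may belong to AKR1C3, which had 9.57, 7.21 and 11.2 CPM in DLD1 controls and 223, 226 and 216 CPM in SW480 controls (-4.56 ± 0.17, adjusted p = 2.87e-12). AKR1B10 had 0.293, 0.463 and 0.352 CPM in DLD1 controls and 49.7, 36.3 and 47.2 CPM in SW480 controls (-6.91 ± 0.23, adjusted p = 8.12e-13). The DLD1 controls held 14, 8 and 19 counts of AKR1C1, 12, 3 and 5 of AKR1C2, and 6, 7 and 7 of AKR1B10. AKR1B10 passed the filter on low counts through the libraries labelled SW480, so its p here is no added support. The exporter ABCC2 had 2.93, 3.51 and 3.37 CPM in DLD1 controls and 298, 249 and 271 CPM in SW480 controls (-6.39 ± 0.13, adjusted p = 6.66e-15). ABCC3 had 67.8, 51.6 and 82.1 CPM in DLD1 controls and 294, 302 and 295 CPM in SW480 controls (-2.14 ± 0.16, adjusted p = 9.67e-09). In each of these 6 members the highest DLD1 control lay below the lowest SW480 control.

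**Figure D4:**
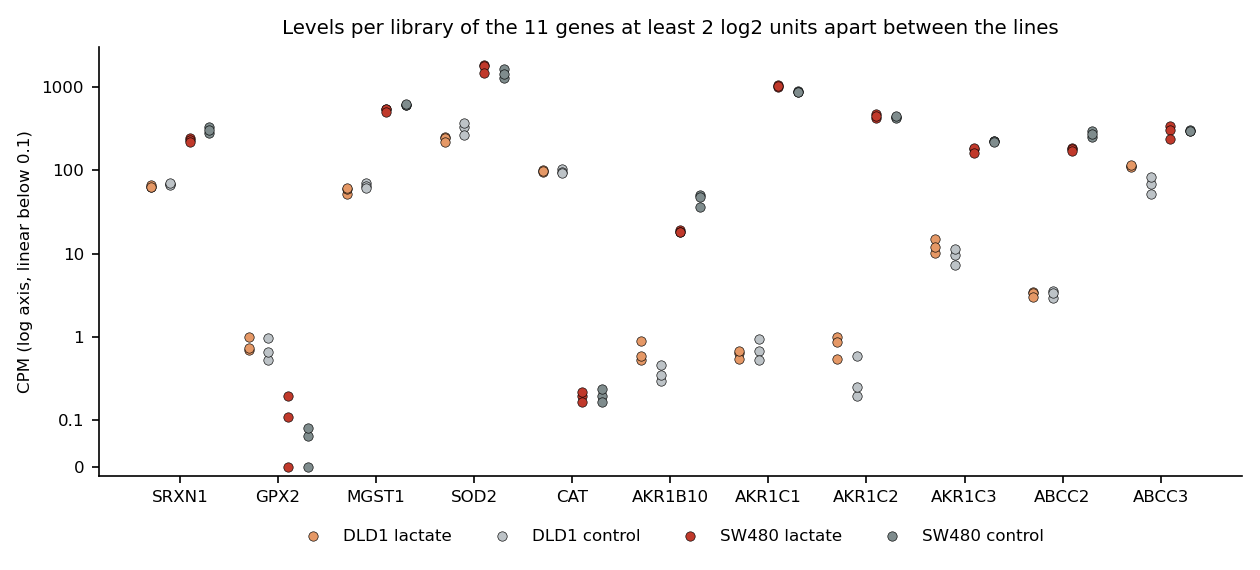
Level in CPM of the 11 genes that were at least 2 log2 units apart between the controls of the lines, in every library, on a log axis that is linear below 0.1. Each circle is a library. CAT and GPX2 lie higher in DLD1, the other 9 genes lie higher in the libraries labelled SW480, and lactate moves no gene across that gap.

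The remaining members differed less between the controls. Higher in DLD1 were KEAP1, GSS, GPX4, GSTP1, PRDX2, PRDX5, TALDO1, ME1 and ABCC1, with log2 differences up to 1.72 for GPX4, the peroxidase of lipid peroxides, and 1.66 for GSTP1, a glutathione transferase. Lower were NQO1, TXNRD1, OSGIN1, GCLC, GCLM, GSTM3, TXN, PRDX4, PRDX6 and TKT, down to -1.76 for PRDX6. NFE2L2 was not called (0.25 ± 0.12, adjusted p = 0.0799), while KEAP1 was higher in DLD1 by 0.43 ± 0.15 (adjusted p = 0.0197) with overlapping groups. HMOX1, GSR, GPX1, PRDX1, PRDX3, SOD1, PGD and UGDH were the others not called. All 5 classical targets were on the lower side in DLD1, and 4 of them passed the test, where 37.3% of all genes were called lower.

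**Figure D5:**
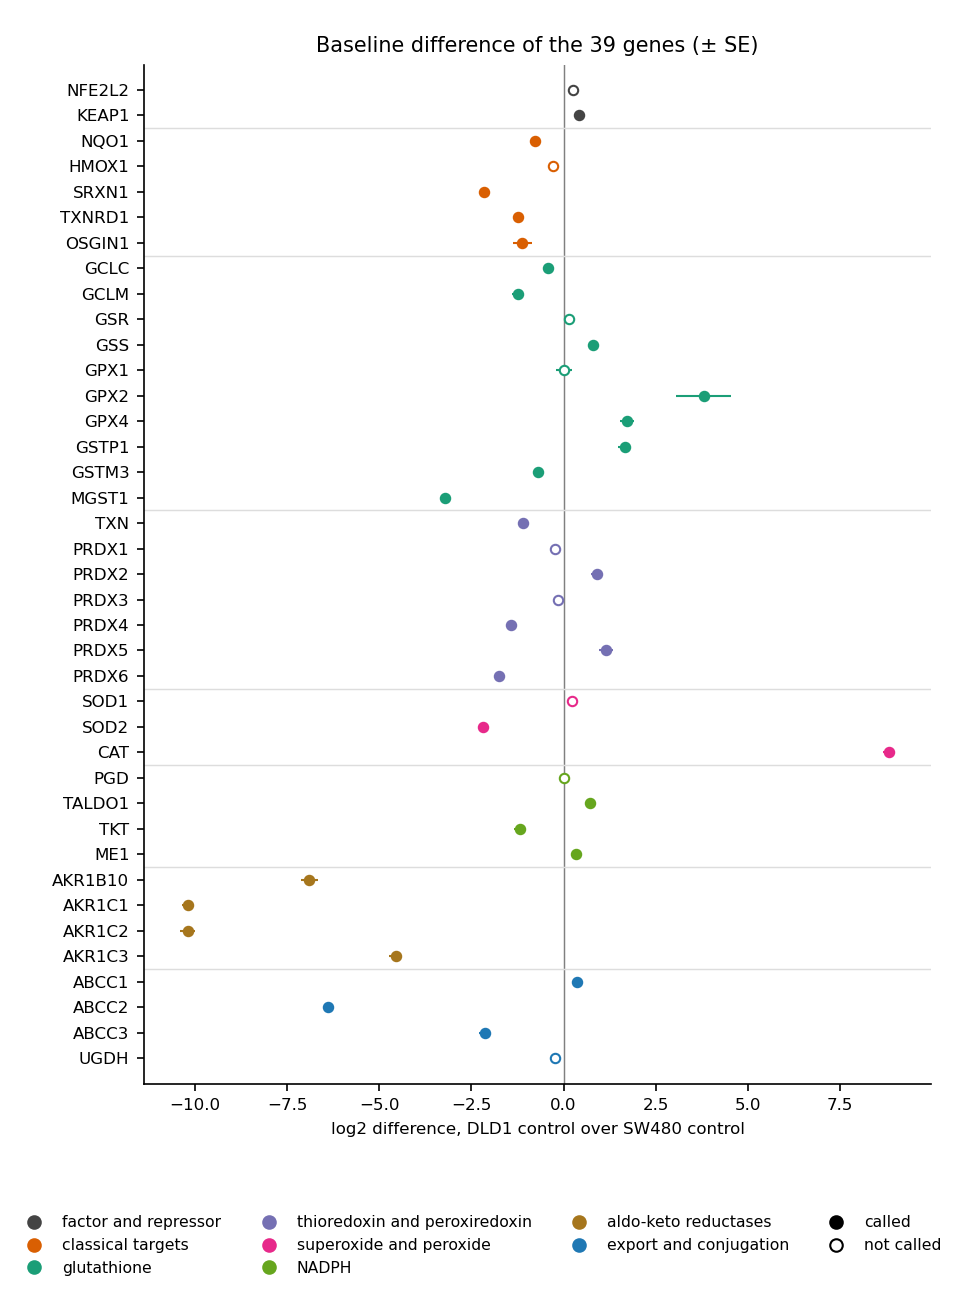
Log2 difference of DLD1 control over SW480 control for each of the 39 genes by role, with bars of ± 1 SE. Filled points were called: 11 to the right of 0 and 19 to the left. CAT lies furthest right at 8.84, and AKR1C1 and AKR1C2 lie furthest left.

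Levels can be set against each other between genes only per length, here as CPM per kb of merged exons in the controls. In DLD1 the highest were GSTP1 at 577 ± 161, PRDX1 at 576 ± 52.1, TXN at 474 ± 49.3 and PRDX5 at 468 ± 145 CPM per kb (SD, n = 3). Their ranges overlapped between neighbours in this order. In the libraries labelled SW480 the highest were TXN at 1009 ± 63.3, PRDX1 at 680 ± 37.7, PRDX6 at 503 ± 16.9 and MGST1 at 277 ± 2.48 CPM per kb (SD, n = 3), and these 4 ranges did not overlap. The lowest in DLD1 were AKR1C2 at 0.0802 and AKR1C1 at 0.102, and in the libraries labelled SW480 GPX2 at 0.0457 and CAT at 0.087 CPM per kb.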

How the data were processed

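The authors deposited raw counts, whole numbers for each gene symbol and library. The submitters' processing notes name HISAT2 and GRCh38. The sources used here do not give the HISAT2 version, the counter, the annotation or the strand setting. Counts were tested in R 4.3.3 with edgeR 4.0.16 (TMM scaling, filterByExpr by group, robust dispersions, quasi-likelihood test, 1 mean per group over all 12 libraries). Genes were called at a Benjamini-Hochberg adjusted p under 0.05 over 17572 genes, and SE is the size of the log2 fold change divided by the root of F. Alternatives used DESeq2 1.42.0, limma 3.58.1 (voom), other scaling and filters, a replicate block, each line alone, removal of trends along GC content and length (known for 87.7% of tested genes and all 39 members, GENCODE v29), and each library left out in turn. The code was tested on simulated data. No library pair was alike within sampling noise. Positions are RefSeq's on GRCh38.p14. Members called in a lactate comparison, a short list of pathway genes whatever their p, and members at least 2 log2 units apart between controls are given in full. From the related lists, called genes are named, with a few others whatever their p; 1 gene is not reported here. The 39 members and the lists were chosen with earlier results of these data known. Protein sequences were not used here. A total of 0 columns were left unused.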

Additional observations from a re-analysis of the deposited data

Results flagged for a closer look

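AKR1B10 was called by a test of the difference between the lactate responses of the lines. The difference, DLD1 minus SW480, was 2.18 ± 0.37 on the log2 scale (adjusted p = 0.0168 in edgeR's quasi-likelihood test), with all 3 lactate libraries higher in DLD1 and all 3 lower in the libraries labelled SW480. With limma-voom the adjusted p was 0.0601. AKR1B10 passed the filter on low counts through the libraries labelled SW480, and the DLD1 side rests on 9, 12 and 21 counts with lactate and 6, 7 and 7 counts without it. These counts do not show a response in DLD1, and the call was lost without any of 5 single libraries.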

How the results depend on the processing

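Among the 39 genes, 11 fell and 1 rose with lactate in the libraries labelled SW480, beside 5.59% and 6.83% of all genes. With 1 library left out in turn, between 5 and 18 fell and between 0 and 2 rose there. Over all genes between 1.41% and 11.6% fell and between 2.42% and 12.4% rose. In DLD1 between 0 and 5 fell and between 0 and 6 rose, beside 0.00553% to 10.6% and 0.0111% to 10.4% of all genes. Between 0 and 7 positive and between 0 and 3 negative differences between the lines were called, beside 0.0111% to 3.95% and 0.0389% to 4.4%. In DLD1 controls between 8 and 11 were higher and between 19 and 20 lower, beside 30.6% to 34.5% and 34.4% to 38.7%. In the libraries labelled SW480, 2 rose with DESeq2, beside 9.07% of all genes. With that line fitted alone 2 rose and 19 fell, beside 16% and 14.2%. With the GC and length trend removed 3 rose and 17 fell, beside 13.8% and 14.8%. In DLD1, where 0 were called, 1 rose with DESeq2's size factors, with limma-voom and with the replicate block. Of all genes, 0.37%, 0.404% and 0.967% rose in those fits. With no filter and with DESeq2, 1 rose and 2 fell, beside 1.54% and 0.827%, and 1.99% and 1.9%, of all genes. With the trend removed 2 rose and 1 fell, beside 1.88% and 1.56%. The main fit called 1 positive and 0 negative differences. With no filter there were 6 and 1, beside 1.28% and 1.03% of all genes. With DESeq2 there were 5 and 1, beside 1.61% and 2.44%. With limma-voom 0 were positive, beside 0.222%, and with the replicate block 2 were positive, beside 0.774%. With the trend removed there were 11 and 3, beside 3.67% and 4.44%. With the replicate block and the trend removal together, 3 rose in the libraries labelled SW480, 2 rose in DLD1, and 8 positive and 4 negative differences were called. Of all genes, 13.3%, 1.8%, 3.33% and 4.11% were called in those comparisons and directions. With the block alone, 10 fell and 1 rose in the libraries labelled SW480, beside 6.08% and 7.26% of all genes. Of those 10, 9 were called without the block. Lactate and control libraries of the same number correlated at 0.11, 0.01 and 0.19 in SW480 and at -0.16, 0.19 and 0.27 in DLD1 in their deviations from the group means, so the numbers were not taken to pair libraries. GSR lost its call with DESeq2's size factors (adjusted p = 0.0648), with no filter (0.155) and with the block (0.0694), and PRDX3 with the block (0.0506). For the lost and gained calls the cause was not tested.

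No lactate fold change that changed sign between settings was called in either of them. Over all 39 genes, 13 changed sign in DLD1 with the trend removed, with or without the block, and 9 without DLD1 control 2, at values between -0.25 and 0.02. Of the genes given in full, these were HMOX1 (-0.06), PRDX3 (0.03) and SOD1 (0.08) with the trend removed, while ABCC2 (-0.01) changed with DESeq2, with its size factors and with DLD1 alone. For those of them that changed sign with single libraries left out, the DLD1 value ran between -0.01 and 0.04 for GSR, between -0.15 and 0.07 for SOD1, between -0.07 and 0.06 for ABCC2 and between -0.38 and 0.02 for AKR1C1. In the libraries labelled SW480 it ran between 0.00 and 0.14 for GCLM and between -0.11 and 0.13 for ABCC3. The difference between the lines and the control comparison could not be fitted with each line alone. Depth limits CAT in the libraries labelled SW480, AKR1B10, AKR1C1 and AKR1C2 in DLD1, and GPX2 in both lines. Under a minimum of 1 CPM in 3 libraries GPX2 was not tested. With 3 libraries a group, a gene that missed the threshold was not shown to be unchanged.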
